A study of Arabidopsis thaliana with 8 samples.

Results

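The 10 genes described here, *FT*, *TSF*, *CO*, *FD*, *SOC1*, *FUL*, *AGL24*, *SVP*, *TEM1* and *TEM2*, carry or relay the signals that set flowering time in *Arabidopsis thaliana*. They were taken by locus, and not by a rule on their values, from a table of 24492 loci, although earlier results of these data were known. All 10 had a value in every library. RNA-seq had been done on rosette leaves of 6-week-old plants, with 3 libraries from wild type of the Columbia accession (WT) and 3 from *kaku4*. The mutant carries a T-DNA insertion in *KAKU4*, which codes for a protein of the plant nuclear lamina. The sample labels name the allele *kaku4*-2. The labels give no treatment for either genotype. The insertion is present in every cell of the plant and only this line was sequenced, so an effect of *KAKU4* cannot be told apart from any other change that the line carries. The paper reports early leaf senescence in this line, rescued by a *KAKU4* transgene and shared by gene-edited *kaku4* mutants. Those other lines are not among the RNA-seq libraries. At 6 weeks the *kaku4* plants were smaller than WT, with some yellow rosette leaves and less chlorophyll. Genotype and the state of the leaf therefore cannot be told apart in these libraries. The time of day at which leaves were collected is not given in the sources used here, although *CO*, *FT* and *GI* cycle over the day.

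Flowering is timed in the leaf and carried out at the shoot apex. Under long days CO protein, stabilised by light, switches on *FT* in phloem companion cells of the leaf, and FT protein travels through the phloem to the apex. There it joins the bZIP factor FD and activates *SOC1*, *FUL* and then the genes that start a flower. *TSF* is the closest relative of *FT* and acts in the same way. SVP, TEM1 and TEM2 hold *FT* back, and SVP also represses *SOC1*, whereas AGL24, a near relative of SVP, promotes flowering together with SOC1. The 10 genes therefore include activators and repressors, and a common direction among them is not a common effect on flowering.

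The members form 4 pairs of related sequences, and how alike they are matters for reading the values, since reads from a stretch that both copies share can be assigned to either. In the RefSeq coding sequences of build TAIR10.1, *FT* and *TSF* were identical at 82.2% of aligned positions, *TEM1* and *TEM2* at 80.7%, *SVP* and *AGL24* at 69.8%, and *SOC1* and *FUL* at 68.8%. The longest stretches shared without a mismatch are shown for the pairs most alike, with the shared run in capitals between 20 flanking coding bases on either side, written 5′ to 3′ on the coding strand. The *FT* stretch lies at chr1:24331601-24331669 on the plus strand and the *TSF* stretch at chr4:11002806-11002874 on the minus strand. The *TEM1* stretch lies at chr1:8982697-8982768 on the minus strand and the *TEM2* stretch at chr1:25880629-25880700 on the plus strand.
FT: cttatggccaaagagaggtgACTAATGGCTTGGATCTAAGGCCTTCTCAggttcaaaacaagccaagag
TSF: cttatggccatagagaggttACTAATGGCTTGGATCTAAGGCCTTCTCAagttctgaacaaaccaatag
TEM1: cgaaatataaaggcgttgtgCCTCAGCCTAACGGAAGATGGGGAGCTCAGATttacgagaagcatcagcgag
TEM2: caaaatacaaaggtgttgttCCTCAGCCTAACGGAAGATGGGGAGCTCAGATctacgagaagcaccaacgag
The shared run was 29 bases long in *FT* and *TSF* and 32 in *TEM1* and *TEM2*. It was 18 bases in *SVP* and *AGL24* and 11 in *SOC1* and *FUL*. All of these runs are shorter than a read of 150 bases, so a whole read within the coding sequence of a member held at least 1 base that differs from its relative.

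Values are FPKM, that is, fragment numbers divided by the length of the transcript and the size of the library, and limma was applied to log2(FPKM + 0.1) over the 20618 genes whose mean reached 0.1 FPKM. Fold changes are given on that log2 scale, *kaku4* minus WT, and for low genes they come out smaller than the ratio of the FPKM values. A gene was called when its log2 fold change reached 1 or more in either direction and its Benjamini-Hochberg adjusted p did not exceed 0.05. Library sums ran from 1412230 to 1559940 FPKM for WT and from 953041 to 1188690 for *kaku4*. Replicate 1 of both genotypes stood apart by its chloroplast loci, which summed to 44363 FPKM (WT) and 30587 FPKM (*kaku4*), while the other 4 libraries held 499 to 945. *KAKU4* itself stood at 16.8% of its WT mean in *kaku4*, with a log2 fold change of -2.49. Leaf mesophyll markers summed to 46499 to 52861 FPKM in WT and to 38116 to 44501 in *kaku4*, so green tissue was present in every library. Every *kaku4* sum lay below every WT sum, while none of the 4 markers passed the adjusted p. The mesophyll sum cannot show whether shoot apex or floral tissue was included, and markers of these are given below. Over all genes, 3380 were called higher in *kaku4* and 2371 lower, together 27.9% of those tested. This split became 2302 and 3846 with each library centred on its median, 6148 and 411 with libraries rescaled to equal sums, and 1602 and 1075 after removal of the trend with transcript length.

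Of the 9 members that could be tested, *TSF* and *FD* were called higher in *kaku4*, which is 22.2% of them against 16.4% of all genes tested. This share supports nothing about the members, since *TSF* reached the minimum for testing only through its *kaku4* values. No member was called lower, against 11.5% of all genes. By the adjusted p alone *SOC1*, *FUL*, *AGL24*, *SVP* and *TEM2* were also lower, which is 55.6% of the members against 28.3% of all genes. The same 5 genes had all 3 *kaku4* libraries below all 3 WT libraries, as did 31.3% of all genes tested. *TSF* and *FD* had all *kaku4* libraries above all WT libraries, as did 33.5% of all genes tested. Together 7 of 9 members did not overlap in one direction or the other, against 64.7% of all genes tested. With *TSF* among them, this count supports nothing about the members either. *FT* and *TEM1* did not pass, and *CO* lay under the minimum. The median log2 fold change was -0.53 over the members tested and 0.0021 over all genes tested. It was -0.02 with equal library sums, where that of all genes was 0.47, and -0.07 with quantile normalization, where that of all genes was -0.04.

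**Figure D1:**
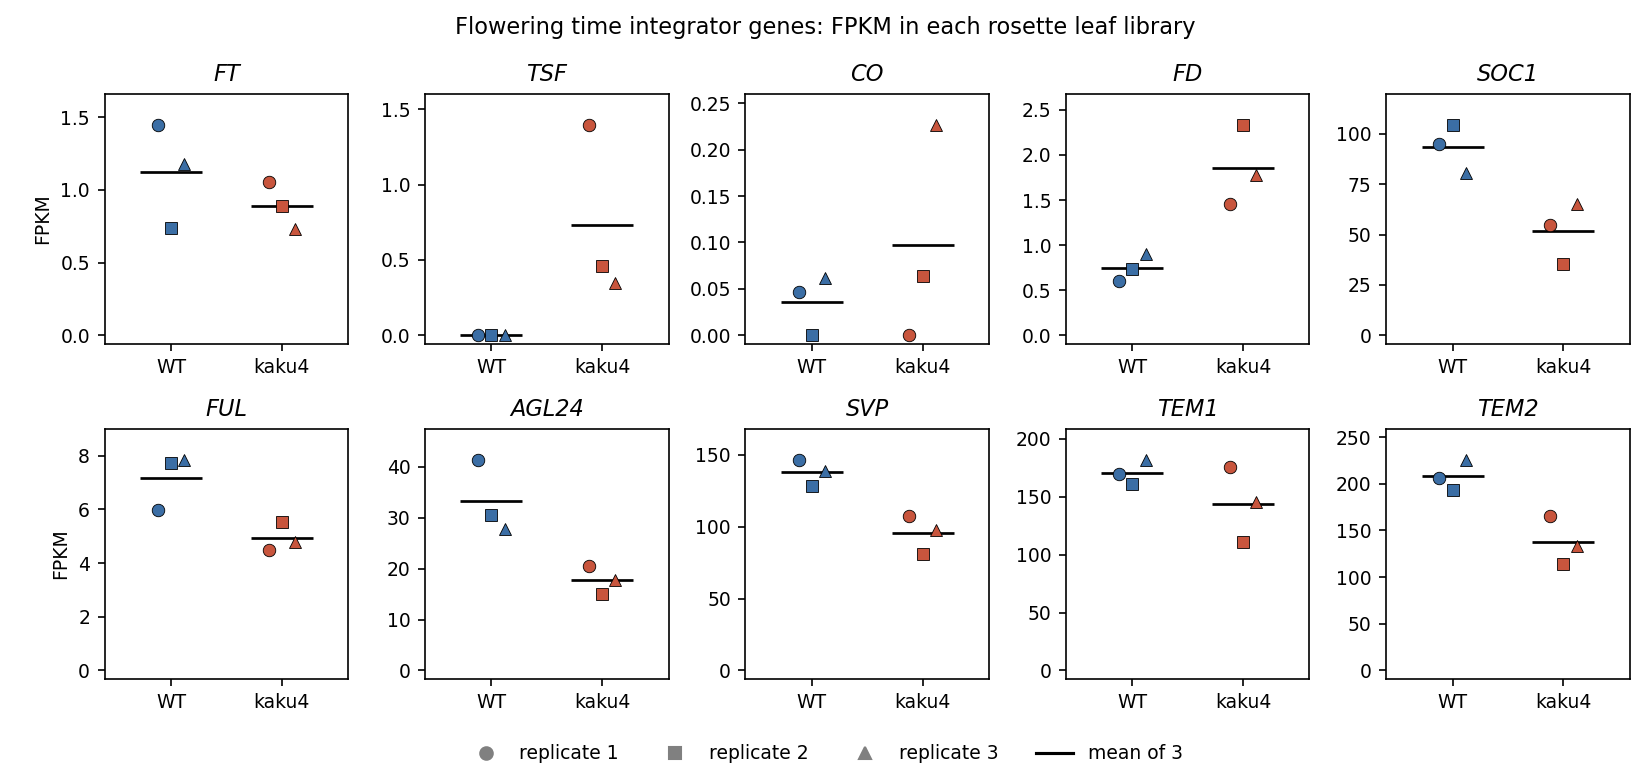
FPKM of each of the 10 genes in the 3 WT (blue) and 3 *kaku4* (red) libraries, on linear axes that start at 0 and differ between panels. Points are libraries, with the replicate number given by the marker shape, and the black line is the mean of 3; the *kaku4* points lie above all WT points for *TSF* and *FD*, below them for *SOC1*, *FUL*, *AGL24*, *SVP* and *TEM2*, and overlap them for *FT*, *CO* and *TEM1*.

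The genes spanned a wide range of levels in WT leaves, on the per-length FPKM scale. The repressors were the most abundant, with means of 209 for *TEM2*, 171 for *TEM1* and 138 for *SVP*. The MADS-box activators followed at 93.2 for *SOC1*, 33.2 for *AGL24* and 7.18 for *FUL*. The mobile signals, their partner *FD* and the activator *CO* were the lowest, with 1.12 for *FT*, 0.749 for *FD*, 0.0361 for *CO* and *TSF* listed at 0. Neighbours in this order did not overlap between libraries except for *FT* with *FD* and *CO* with *TSF*. In *kaku4* the order began with *TEM1* at 144 and *TEM2* at 138, which overlapped, and *FD* at 1.86 lay above *FT* at 0.891 with no overlap. *FT* and *TSF* overlapped in *kaku4*.

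*FT* (AT1G65480, chr1:24331373-24333999, plus strand, 4 exons) codes for the mobile flowering signal. It stood at 1.45, 0.736 and 1.18 FPKM in the WT libraries and at 1.05, 0.891 and 0.730 in the *kaku4* libraries. The genotypes overlapped, and the highest and nearly the lowest of the 6 values both came from WT. The means were 1.12 ± 0.358 (SD, n = 3) and 0.891 ± 0.161 (SD, n = 3). The log2 fold change was -0.27 (SE 0.30, 95% interval -0.96 to 0.42, limma adjusted p = 0.473), and the interval takes in 0 and values on both sides of it. The sign turned to 0.43 after removal of the length trend and to 0.14 after removal of the GC trend. With equal library sums it turned to 0.19, where the median of all genes was 0.47. *FT* passed the adjusted p in 0 of 20 alternatives.

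*TSF* (AT4G20370, chr4:11000771-11003010, minus strand, 4 exons) was listed at 0 in all 3 WT libraries and at 1.39, 0.461 and 0.346 FPKM in the *kaku4* libraries. No WT library held a value and every *kaku4* library did, with replicate 1 of *kaku4* the highest. The limma adjusted p was 0.00259. *TSF* reached the minimum for testing only through its *kaku4* values, and WT held no spread, so this p is not taken as support. No fold change is given, since the fitted value depends on the pseudocount, and with a pseudocount of 1 the gene was no longer called. *TSF* was not among the genes tested when a mean of 1 FPKM was required. A listed 0 need not be an absence of RNA: 49 loci were at 0 in 1 or 2 libraries of a genotype whose other libraries held more than 10 FPKM. Conversely, 66 loci were at 0 in all WT libraries and above 0 in all *kaku4* libraries, and 60 loci showed the opposite, so *TSF* is 1 of those 66.

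*FT* and *TSF* are expressed in phloem companion cells. Of 4 markers of these cells, 2 were higher in *kaku4* by the adjusted p, against 28.6% of all genes tested. A count over 4 genes is too small to be read as a change in these cells. The 4 markers *SUC2*, *AHA3*, *APL* and *OPS* summed to 50.5 to 57.1 FPKM in WT and to 84.0 to 102 in *kaku4*, and none was at 0. *SUC2*, the companion cell sucrose transporter, stood at 40.3, 37.4 and 43.5 FPKM in WT and 69.3, 75.7 and 63.7 in *kaku4* (log2 fold change 0.78, limma adjusted p = 0.00125). *AHA3*, a phloem proton pump, was called higher (1.16, adjusted p = 0.00194), but not after removal of the length trend (0.22). *APL* (0.48, adjusted p = 0.111) and *OPS* (-0.10, adjusted p = 0.636) did not pass, and after removal of the length trend *OPS* was lower (-0.80, adjusted p = 0.0143). The part of these markers in the values of *FT* and *TSF* was not tested. In bulk samples such as these, a change in the number of cells of a type and a change in RNA per cell cannot be told apart.

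*CO* (AT5G15840, chr5:5170162-5173085, minus strand, 2 exons), the light-dependent activator of *FT*, was close to the lower end of the table. It was listed at 0.0467, 0 and 0.0615 FPKM in WT and at 0, 0.0639 and 0.226 in *kaku4*. The genotypes overlapped, 1 library of each was at 0, and the mean of 0.0664 over 6 libraries lay under the minimum for testing. The RefSeq annotation places AT5G15843, on the opposite strand, across 1967 bases of *CO*. TopHat2 and Cufflinks were run with default parameters, under which reads are not assigned by strand, so reads of *CO* and of AT5G15843 cannot be told apart.

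*FD* (AT4G35900, chr4:17004382-17006462, plus strand, 2 exons), the bZIP partner of FT protein that is best known at the shoot apex, was higher in *kaku4*. It stood at 0.608, 0.734 and 0.905 FPKM in WT and at 1.45, 2.33 and 1.78 in *kaku4*. All *kaku4* values lay above all WT values, and the mean rose from 0.749 ± 0.149 to 1.86 ± 0.444 (SD, n = 3), or to 248% of WT. The log2 fold change was 1.19 (SE 0.27, 95% interval 0.59 to 1.80, limma adjusted p = 0.00549). Its adjusted p passed in 20 of 20 alternatives, with values between 0.70 and 1.63. Those under 1, which ended the call, were 0.70 with a pseudocount of 1, 0.998 with libraries centred on their median and 0.81 with quantile normalization. *FDP*, the paralog of *FD*, stood at 0.506, 0.783 and 0.387 FPKM in WT and 0.119, 0.401 and 0.364 in *kaku4*, which overlapped (-0.79, adjusted p = 0.155).

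*SOC1* (AT2G45660, chr2:18807505-18811125, minus strand, 7 exons), the MADS-box gene on which the photoperiod, age and gibberellin inputs converge, was lower in *kaku4*. It stood at 94.9, 104 and 80.3 FPKM in WT and at 54.6, 35.6 and 64.9 in *kaku4*. The genotypes did not overlap, although the lowest WT and the highest *kaku4* library, were both replicate 3. The mean fell from 93.2 ± 12.1 to 51.7 ± 14.9 (SD, n = 3), or to 55.5% of WT, with a log2 fold change of -0.88 (SE 0.22, 95% interval -1.39 to -0.38, limma adjusted p = 0.00911). This size lies under the fold threshold. *SOC1* was called without *kaku4* replicate 3 (-1.07) and with libraries centred on their median (-1.08). It did not pass the adjusted p with equal library sums (-0.37, adjusted p = 0.164), with quantile normalization (-0.48, adjusted p = 0.0899) or after removal of the GC trend (-0.22, adjusted p = 0.221).

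*AGL24* (AT4G24540, chr4:12670897-12674106, minus strand, 9 exons) codes for the MADS-box protein that activates *SOC1* and is activated by it. It stood at 41.3, 30.5 and 27.9 FPKM in WT and at 20.5, 15.0 and 17.7 in *kaku4*. Every *kaku4* library was below every WT library, and WT replicate 1 was the highest. The mean fell from 33.2 ± 7.12 to 17.7 ± 2.78 (SD, n = 3), or to 53.4% of WT, with a log2 fold change of -0.89 (SE 0.18, limma adjusted p = 0.00384). The size passed the fold threshold without WT replicate 3 (-1.01), without *kaku4* replicate 1 and with libraries centred on their median (-1.09). After removal of the length trend it was -0.36 (adjusted p = 0.104), and with equal library sums -0.38 (adjusted p = 0.0832).

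*FUL* (AT5G60910, chr5:24502434-24506269, minus strand, 8 exons), a MADS-box gene of the *AP1* clade that acts beside *SOC1*, stood at 5.96, 7.73 and 7.84 FPKM in WT and at 4.48, 5.52 and 4.80 in *kaku4*. The groups did not overlap, with WT replicate 1 close above *kaku4* replicate 2. The mean fell from 7.18 ± 1.05 to 4.93 ± 0.532 (SD, n = 3), or to 68.7% of WT, with a log2 fold change of -0.53 (SE 0.17, limma adjusted p = 0.0272). Of the 5 members that were lower, *FUL* depended most on the setting, as its adjusted p passed in 11 of 20 alternatives. It was -0.12 (adjusted p = 0.591) after removal of the length trend and -0.02 (adjusted p = 0.949) with equal library sums. After removal of the GC trend it was -0.13 (adjusted p = 0.574). *FUL* also did not pass without WT replicate 2 (adjusted p = 0.103) or 3 (0.0981), or without *kaku4* replicate 1 (0.0654) or 3 (0.0856). Without WT replicate 1 (0.0161) or *kaku4* replicate 2 (0.0292) it passed.

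Markers of the shoot apex and of floral organs, tissues in which *SOC1*, *AGL24*, *FUL* and *FD* are also active, had a lower sum in *kaku4*. Of 9 markers 8 had values, none was at 0 in all libraries, and their sum lay between 17.8 and 19.1 FPKM in WT and between 9.60 and 10.5 in *kaku4*. Nearly all of this sum was *STM*, the meristem homeobox gene, at 16.4, 16.5 and 16.0 FPKM in WT and 9.12, 9.35 and 9.90 in *kaku4* (log2 fold change -0.78, limma adjusted p = 0.00108). Like *SOC1*, *AGL24* and *FUL*, *STM* did not pass with equal library sums (-0.27, adjusted p = 0.212). Of the 6 markers tested, the floral organ genes *PI*, *AG*, *SEP1* and *SEP3* were called lower, against 11.5% of all genes, at WT means of at most 0.719 FPKM, and *AP3* did not pass (-0.35, adjusted p = 0.64). After removal of the GC trend only *PI* of these 4 was still called, while *AG* was also lost with equal sums and *SEP3* after removal of the length trend. *SOC1*, *AGL24* and *FUL* fell in the same libraries as these markers, and *FD* was higher in them. The part of the markers in these values was not tested.

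The repressors were lower or did not pass. *SVP* (AT2G22540, chr2:9579647-9583901, plus strand, 9 exons), the MADS-box repressor of *FT* and *SOC1*, stood at 146, 128 and 139 FPKM in WT and at 107, 81.2 and 97.5 in *kaku4*. The groups did not overlap, and the mean fell from 138 ± 9.18 to 95.3 ± 13.2 (SD, n = 3), or to 69.1% of WT. The log2 fold change was -0.54 (SE 0.14, limma adjusted p = 0.0109). Unlike that of *AGL24*, it was about as large after removal of the length trend (-0.59, adjusted p = 0.0154). It did not pass with equal library sums (-0.02, adjusted p = 0.872), with quantile normalization (-0.06, adjusted p = 0.651) or after removal of the GC trend (-0.23, adjusted p = 0.17).

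*TEM1* (AT1G25560, chr1:8981556-8983314, minus strand, 1 exon) and *TEM2* (AT1G68840, chr1:25880155-25882222, plus strand, 1 exon) code for RAV-type repressors of *FT*. *TEM1* stood at 170, 161 and 182 FPKM in WT and at 176, 111 and 146 in *kaku4*. The groups overlapped, since *kaku4* replicate 1 lay among the WT libraries, and the log2 fold change was -0.27 (SE 0.18, 95% interval -0.67 to 0.13, limma adjusted p = 0.221). Its sign turned with equal library sums (0.25) and with quantile normalization (0.27), whereas its adjusted p passed after removal of the GC trend (-0.58, adjusted p = 0.0433). It also passed without *kaku4* replicate 1 (-0.425, adjusted p = 0.0474), the library that made the groups overlap. *TEM2* stood at 206, 194 and 225 FPKM in WT and at 165, 114 and 134 in *kaku4*, with no overlap. Its mean fell from 209 ± 15.8 to 138 ± 25.8 (SD, n = 3), or to 66.0% of WT, with a log2 fold change of -0.61 (SE 0.16, limma adjusted p = 0.011). *TEM2* no longer passed with equal library sums (-0.10, adjusted p = 0.515) or with quantile normalization (-0.07, adjusted p = 0.621).

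The fold changes of the members shifted with the scaling of the libraries. Rescaling to equal sums moved the median of all genes tested from 0.0021 to 0.47, and centring the libraries moved it to -0.19. Relative to the median of all genes under equal sums, *SOC1* stood at -0.84, *AGL24* at -0.85, *TEM2* at -0.57, *SVP* at -0.50 and *FUL* at -0.49. On the same measure *FT* stood at -0.28, *TEM1* at -0.23 and *FD* at 1.16. The positive values of *FT* and *TEM1* with equal sums thus still lay below that median. Places relative to the median were close to these with the deposited FPKM. There *SOC1* stood at -0.89, *AGL24* at -0.90, *TEM2* at -0.62, *SVP* at -0.54 and *FUL* at -0.53. *FT* and *TEM1* stood at -0.27 and *FD* at 1.19. With quantile normalization *SVP* (-0.02) and *TEM2* (-0.03) lay at the median of all genes, *SOC1* stood at -0.44 relative to it and *AGL24* and *FUL* at -0.69. Among 20 alternatives the adjusted p passed in 17 for *AGL24* and *TEM2*, in 16 for *SOC1* and *SVP* and in 11 for *FUL*. The sign of these 5 genes was negative in all 20, but with values as small as -0.02 for *FUL* and *SVP*. Fold changes also followed transcript length over all genes (Spearman's rho 0.587 across 20464 genes, which are not independent replicates). The members had a median transcript length of 1480 bases against 1688 over all genes tested.

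**Figure D2:**
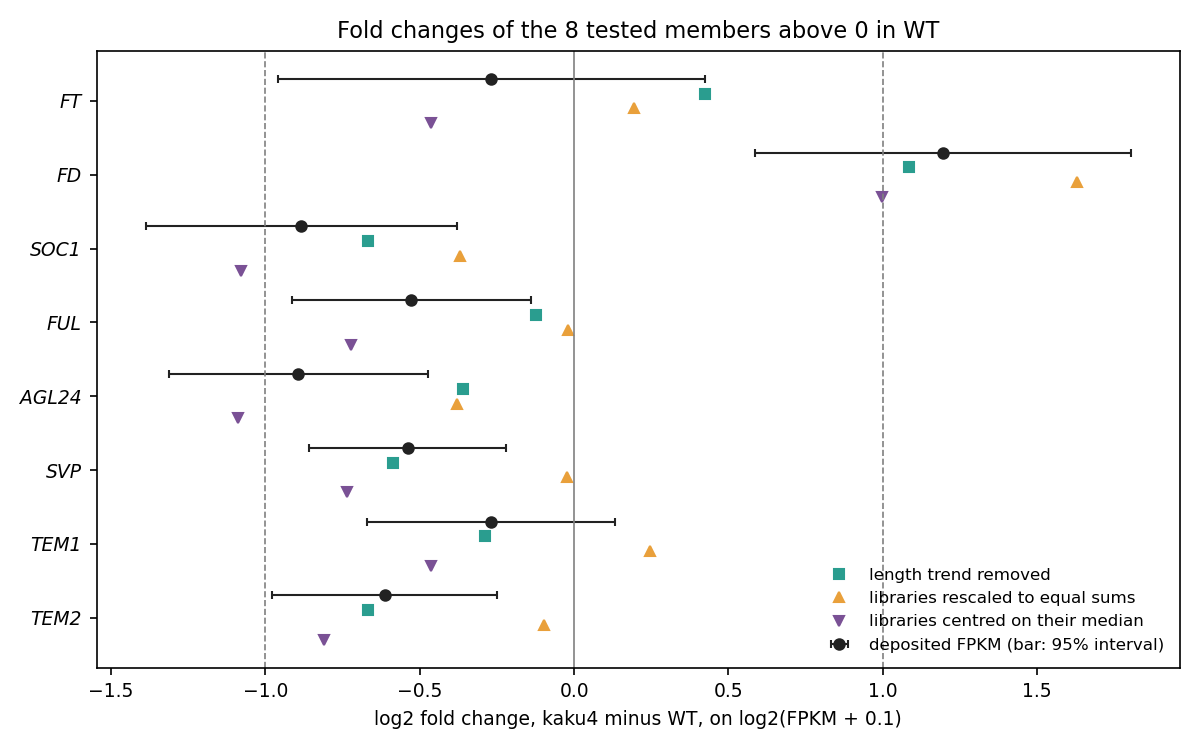
Log2 fold change, *kaku4* minus WT, of the 8 tested members that were above 0 in WT (*CO* lay under the minimum for testing and *TSF* was listed at 0 in WT), from the deposited FPKM (black circles with their 95% interval, 3 libraries per genotype) and after 3 other scalings (coloured markers). The solid line is 0 and the dashed lines the fold threshold of 1; *FD* lies to the right throughout, *SOC1*, *AGL24*, *FUL*, *SVP* and *TEM2* to the left or, for *FUL* and *SVP* with equal sums, at -0.02, and *FT* and *TEM1* lie on both sides of 0.

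The log2 ratio of (FPKM + 0.1) between related genes within a library was compared for the 4 pairs. Apart from *FT* to *TSF*, where the added 0.1 weighs most, rescaling the libraries to equal sums hardly moves it, for example from -0.36 to -0.35 for the difference in *SOC1* to *FUL*. With 3 libraries against 3 an exact two-sided permutation test cannot give a p under 0.1, so none of these ratios could pass 0.05. The log2 ratio of *TEM1* to *TEM2* was -0.28, -0.26 and -0.31 in WT and 0.092, -0.041 and 0.13 in *kaku4*. The groups did not overlap, the difference was 0.34 (exact permutation p = 0.1, 0.133 after Benjamini-Hochberg adjustment over the 4 pairs), and it stayed between 0.30 and 0.39 over 17 alternatives. *TEM2* was thus the more abundant in every WT library, and *TEM1* in 2 of 3 *kaku4* libraries.

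The log2 ratio of *SVP* to *AGL24* was 1.82, 2.07 and 2.31 in WT and 2.38, 2.43 and 2.46 in *kaku4*, again with no overlap (difference 0.35, exact permutation p = 0.1, adjusted 0.133). *AGL24* was the lower of the pair in every library. The difference turned to -0.23 after removal of the length trend. The ratio of *SOC1* to *FUL*, at 3.97, 3.74 and 3.34 in WT and 3.58, 2.67 and 3.73 in *kaku4*, overlapped (difference -0.36, exact permutation p = 0.4), and its sign turned with quantile normalization (0.25). The ratio of *FT* to *TSF* was 3.95, 3.06 and 3.68 in WT and -0.38, 0.82 and 0.90 in *kaku4* (exact permutation p = 0.1, adjusted 0.133). In WT that ratio is set by the pseudocount, since *TSF* is listed at 0 there, and its size is therefore no measurement.

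**Figure D3:**
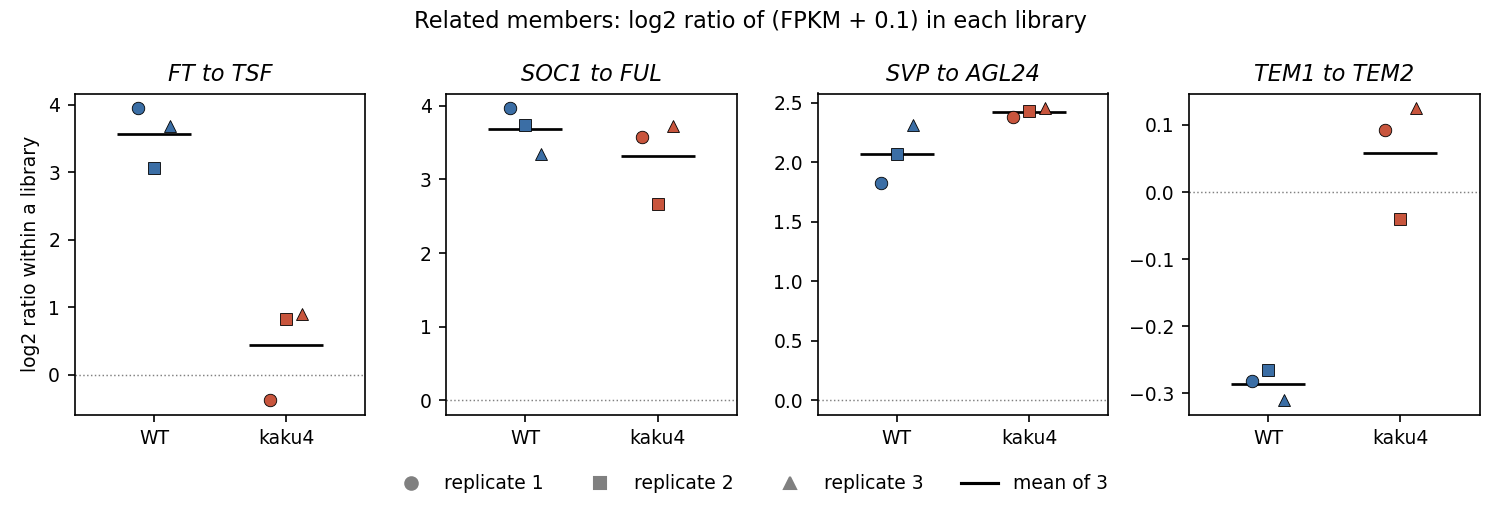
Log2 ratio of (FPKM + 0.1) between related members within each library, for 3 WT (blue) and 3 *kaku4* (red) libraries. Marker shapes give the replicate number, black lines the mean of 3 and the dotted line equal levels; the genotypes are separate for *FT* to *TSF*, *SVP* to *AGL24* and *TEM1* to *TEM2*, and overlap for *SOC1* to *FUL*.

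The genes that act on the members were read from the same fit. Of 15 photoperiod genes and regulators of *CO*, 4 were called higher and 0 lower (16.4% and 11.5% of all genes tested), with a median log2 fold change of 0.80 that was 0.20 after removal of the length trend. *GI*, a clock-controlled activator of *CO*, stood at 0.681, 0.810 and 0.832 FPKM in WT and 3.46, 5.35 and 3.73 in *kaku4* (2.27, SE 0.23, adjusted p = 0.00029). It was still called after removal of that trend (1.09). *PIF4*, the most abundant member of the list that was not called, stood at 58.2 in WT and 65.7 in *kaku4* (0.17, adjusted p = 0.275). Of 11 relatives and NF-Y partners of *CO*, 2 were called lower and 0 higher (11.5% and 16.4% of all genes tested). By the adjusted p alone 6 were lower and 3 higher (28.3% and 28.6% of all genes tested). *NF-YB2*, a subunit of the complex through which CO acts on *FT*, went from 120, 116 and 127 FPKM in WT to 58.8, 41.4 and 56.0 in *kaku4* (-1.23, adjusted p = 0.000545), but was under the fold threshold after removal of the length trend (-0.59), with equal sums (-0.71) and with quantile normalization (-0.81). *COL3* stood at 811 in WT and 439 in *kaku4* (-0.86, adjusted p = 0.0085), but did not pass after removal of the length trend (-0.38), with equal sums (-0.35) or with quantile normalization (-0.15). It was called lower with centred libraries (-1.06) and after removal of the GC trend (-1.24).

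Among the relatives of *FT* and the genes of its transport, 1 of 6 tested was called lower (11.5% of all genes tested). This was *TFL1*, the relative of *FT* that delays flowering, at 3.09, 2.76 and 4.50 FPKM in WT and 1.23, 1.41 and 1.23 in *kaku4* (-1.32, adjusted p = 0.00179). It did not pass after removal of the length trend (-0.56, adjusted p = 0.116) and was under the fold threshold with equal sums (-0.82) and after removal of the GC trend (-0.95). *NAKR1*, which acts in the phloem transport of FT protein, stood at 6.21 in WT and 5.97 in *kaku4* (-0.04, adjusted p = 0.908). In the clade of *SOC1*, 3 of 5 genes were tested. *AGL42* was called lower, from 1.91 to 0.896 FPKM (-1.02, adjusted p = 0.0075), but did not pass with equal library sums (-0.53, adjusted p = 0.156) or after removal of the GC trend (-0.23, adjusted p = 0.532). *AGL19* stood at 5.55 and 6.14 (0.12, adjusted p = 0.773).

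Of the 5 *SPL* genes of the age pathway, 1 was called, and it was lower (11.5% of all genes tested were called lower). *SPL4*, which promotes flowering as the plant ages, stood at 23.5, 21.5 and 24.6 FPKM in WT and 7.15, 7.30 and 9.47 in *kaku4* (-1.54, SE 0.15, adjusted p = 0.00025). The groups were far apart, and *SPL4* was called under all of the centred, rescaled, quantile, length and GC settings. *SPL9* went from 6.93 to 4.41 (-0.64, adjusted p = 0.00621), but did not pass with equal sums (-0.13). After removal of the GC trend *SPL9* was called lower (-1.04). None of the 6 *AP2*-type repressors was called, against 27.9% of all genes tested. By the adjusted p alone 3 were lower (28.3% of all genes), including *TOE1* at 95.3 in WT and 61.5 in *kaku4* (-0.62, adjusted p = 0.0084). *TOE1* did not pass with equal sums (-0.11) or quantile normalization (-0.21). After removal of the length trend *TOE1* was called lower (-1.18). Neither of the 2 *RAV* relatives of *TEM1* and *TEM2* passed, and *RAV1* stood at 135 and 130 (-0.05, adjusted p = 0.743).

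*FLC*, the repressor of *FT* and *SOC1* that is silenced by cold, stood at 4.02, 5.98 and 6.51 FPKM in WT and 5.30, 4.25 and 5.15 in *kaku4*, which overlapped (-0.14, adjusted p = 0.59). *MAF5* and *MAF1*, relatives of *FLC*, moved in opposite directions. *MAF5* was the only one of the 6 genes of the *FLC* and *MAF* list that was called, against 27.9% of all genes tested. It stood at 0.801, 1.63 and 1.31 FPKM in WT and 11.7, 17.1 and 16.9 in *kaku4* (3.54, SE 0.27, adjusted p = 0.000108), and it was called under the same 5 settings as *SPL4*. *MAF1* fell from 105, 94.9 and 88.2 to 64.0, 38.6 and 47.6 (-0.96, adjusted p = 0.00289), but did not pass after removal of the GC trend (-0.15). It was called lower after removal of the length trend (-2.11) and with centred libraries (-1.16). The former rests on the length of the longest *MAF1* transcript, 4099 bases, against a median of 1356.5 for the tested genes of this list. *MAF* genes are close relatives, and how the counting assigned reads between them is not given in the sources used here.

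The autonomous pathway, whose members keep *FLC* low, had 2 of 7 called higher (16.4% of all genes) and 6 higher by the adjusted p alone (28.6% of all genes). Its median log2 fold change of 0.86 was 0.16 after removal of the length trend, and its transcripts were long, with a median of 3147 bases. *LD* stood at 0.557, 1.00 and 0.675 FPKM in WT and 1.97, 2.94 and 2.71 in *kaku4* (1.66, adjusted p = 0.00151) and was no longer called without the length trend (0.74). *FVE* stood at 9.67 and 18.3 (0.90, adjusted p = 0.00213). Of the genes that start a flower, only *AP1* reached the minimum. It stood at 0.837, 1.20 and 0.790 FPKM in WT and 0.300, 0.395 and 0.444 in *kaku4* (-1.11, adjusted p = 0.0134). *AP1* did not pass with equal library sums (-0.65, adjusted p = 0.15) or after removal of the GC trend (-0.60, adjusted p = 0.114). *LFY* was at most 0.363 in WT and at most 0.0306 in *kaku4*.

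**Figure D4:**
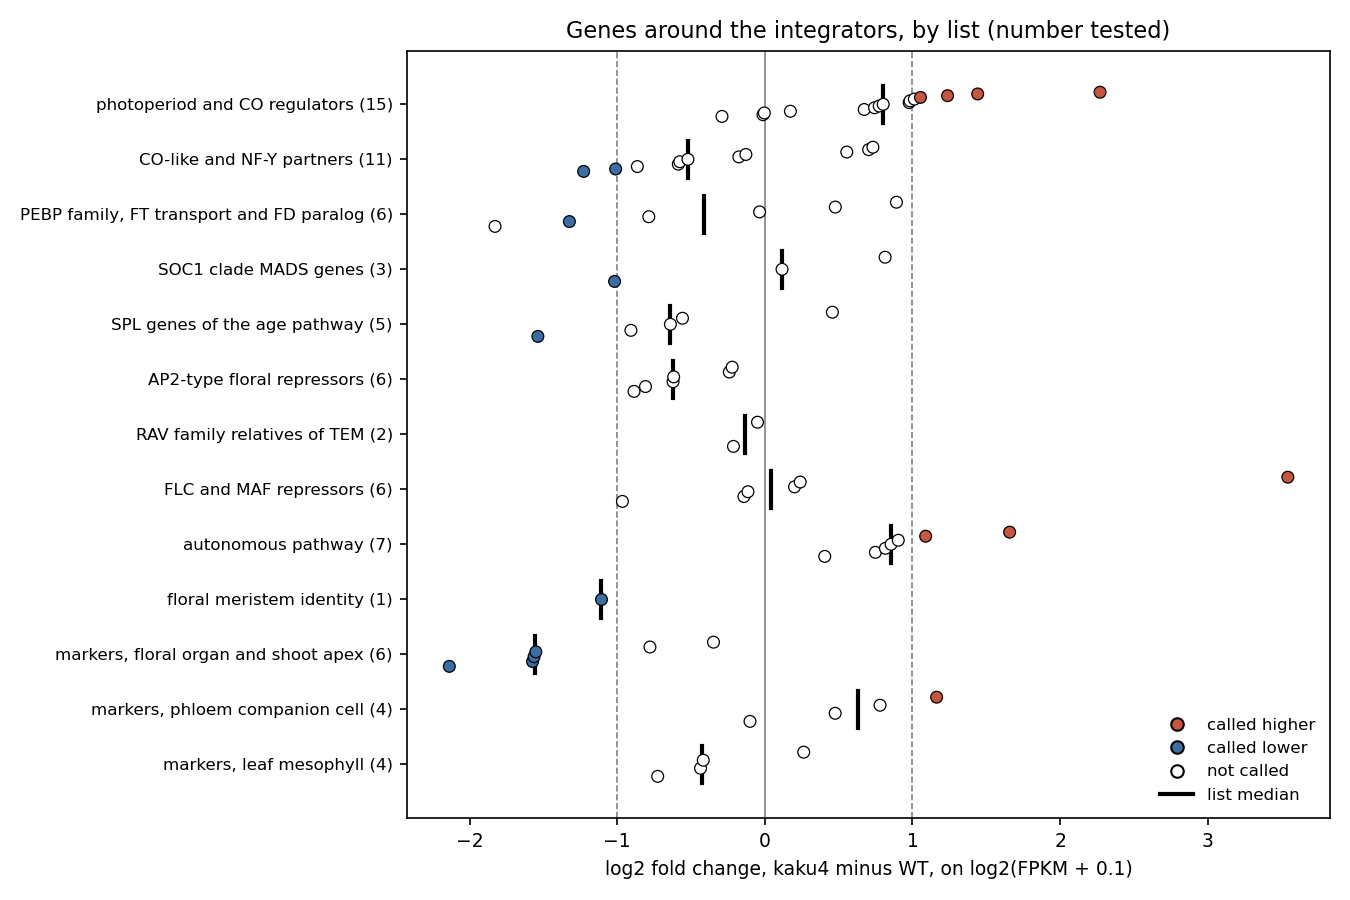
Log2 fold change, *kaku4* minus WT, of each tested gene in the lists of genes around the integrators and in the marker lists, with the number tested in brackets. Red points were called higher, blue points lower and open points not called, the black bar is the list median, and the dashed lines mark the fold threshold of 1; photoperiod and autonomous pathway genes have medians of 0.80 and 0.86, and *MAF5* is the point farthest to the right.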

How the data were processed

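RNA-seq was done on rosette leaves of 3 WT and 3 *kaku4* samples, described as independent biological samples. The authors aligned 150-base paired reads to TAIR10 with TopHat2 2.0.9 and computed FPKM with Cufflinks (version not given in the sources used here), and deposited these FPKM values. Of 24492 loci, 1442 held no value. These marks led a unit check to file the columns as a general unit and left the values as they were. Read counts per gene are unknown, so no counting interval is given. Precision rests on the spread of 3 libraries per genotype, which limma draws toward the spread of genes of similar level.

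Here log2(FPKM + 0.1) was tested with limma 3.58.1 in R 4.3.3 (mean-variance trend, genotype only, Benjamini-Hochberg over the 20618 genes whose mean reached 0.1 FPKM). The functions were tested on simulated data. Lengths, GC content, coordinates and sequences came from RefSeq TAIR10.1, matched by locus. Length and GC content are those of the longest transcript of each locus. Trends were removed with a lowess curve per library (span 0.4), which also removes true change that follows length. In all, 21 alternatives were run. Apart from the 10 members and *KAKU4*, genes were named from lists by a rule: the largest called change in each direction, the most abundant gene not called, and *FLC*, *GI*, *LFY*, *AP1*, *AGL19* and *AGL42*. *FDP* and the named cell type markers fall outside it and were picked with their values in view. The members and lists were chosen with earlier results of these data known. ChIP-seq was not analysed here.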

Additional observations from a re-analysis of the deposited data

How the results depend on the processing

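All genes called higher and lower numbered 3380 and 2371. The count of higher genes was 1743 with a pseudocount of 1, 6148 with equal library sums (6158 over nuclear loci), 1602 without the length trend and 5905 with no fold threshold. The count of lower genes was 3846 with centred libraries, 411 with equal sums (417 over nuclear loci), 1075 without the length trend and 5844 with no fold threshold. Leaving out 1 library gave 2648 to 3767 higher and 1616 to 2994 lower genes. The 2 members called higher became 0 with a pseudocount of 1 and 1 with a minimum mean of 1 FPKM, centred libraries or quantile normalization, and the 0 called lower became 2 with centred libraries and 5 with no fold threshold. Leaving out 1 library gave 0 to 1 members called lower (*AGL24* without WT replicate 3 or *kaku4* replicate 1, *SOC1* without *kaku4* replicate 3). *FT* turned to 0.19 with equal sums (0.19 over nuclear loci), 0.43 without the length trend and 0.14 without the GC trend. *TEM1* turned to 0.25 with equal sums, 0.24 over nuclear loci and 0.27 with quantile normalization. The ratio of *SOC1* to *FUL* turned to 0.25 with quantile normalization, and that of *SVP* to *AGL24* to -0.23 without the length trend. The cause of these changes was not tested.

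Same-numbered libraries correlated at 0.305, 0.082 and 0.006 in their deviations, so the numbers were not taken as pairs, and 2 of 6 libraries correlated best with their own number. With a replicate block 3410 genes were called higher and 2481 lower, 2 members were higher and 0 lower. With the block and the length trend removed, 1640 were higher and 1100 lower, and *FT* stood at 0.43.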

Other observations

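For each member with a mean of at least 1 FPKM, the genes tested whose pattern over the 6 libraries was most like it were found by the root mean square difference in log2(FPKM + 0.1), each gene centred on its own mean. The nearest to *SOC1* was AT5G63150, at a difference of 0.0496. The nearest to *AGL24* was AT1G71090 at 0.0454, and *RCAR1*, a receptor of abscisic acid, followed at 0.0636. *FD* lay nearest to *ABCB27*, a transporter gene, at 0.0418. *FUL* lay nearest to *BIOF*, a gene of biotin synthesis, at 0.033, and *SVP* to AT5G02530 at 0.0313. *TEM2* lay nearest to AT2G20725 at 0.0256 and *TEM1* to AT1G50740 at 0.0367. *FT* had no gene as close, with AT3G47400 at 0.0897 and the clock gene *LWD2* at 0.0957. None of the 3 nearest genes of any member was another member.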
